A study of Homo sapiens with 6 samples.

Results

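The 10 genes described here encode the TGF-beta ligands TGFB1, TGFB2 and TGFB3, the receptors TGFBR1, TGFBR2 and TGFBR3, the SMAD proteins SMAD2, SMAD3 and SMAD7, and the SMAD corepressor SKIL. They were found by symbol in the deposited gene table, which lists 74852 genes, and all 10 were among the 18717 genes that were tested, which averaged 10 normalized counts or more over the 6 libraries. Each member has 1 row in the table, and TGFB2 shares its row with TGFB2-OT1, so that reads of those genes cannot be told apart. The RNA came from MDA-MB-231, an established human cell line that represents triple-negative breast cancer (TNBC) and has mesenchymal features. The cells were transfected in 2 rounds with a pool of siRNAs against NEK2, a centrosomal serine/threonine kinase (si-NEK2), or with a non-targeting pool (si-CTRL), and polyA-enriched RNA was sequenced in 3 libraries per group. The question addressed by the comparison was which transcripts depend on NEK2 in these cells. Both groups were transfected and the siRNAs were pooled, so that the effect of a single siRNA cannot be read from these libraries, and in bulk RNA fewer cells with a transcript and less of it per cell cannot be told apart.

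TGF-beta ligands are secreted in a latent form and, once released, bind the type II receptor TGFBR2, a kinase that is active without ligand. TGFBR2 then phosphorylates the type I receptor TGFBR1 (also called ALK5), which in turn phosphorylates SMAD2 and SMAD3, and these enter the nucleus with SMAD4. In breast cancer cells this pathway is known for its part in growth arrest at early stages and in epithelial to mesenchymal transition and invasion at later stages. SMAD7 and SKIL restrain the pathway and are themselves transcribed in response to it, as parts of a negative feedback.

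The libraries held between 52625492 and 87454509 reads assigned to genes. NEK2 mRNA in si-NEK2 libraries was 10.0% of its si-CTRL mean (log2 fold change -3.32, SE 0.12, adjusted p = 1.86e-06 by limma). The first principal component separated the groups and held 61.7% of the variance. The second, with 16.2%, held si-CTRL replicate 1 (38.9) at a distance from si-CTRL replicates 2 and 3 (-26.1 and -21.2). It also set si-NEK2 replicate 3 (16.9) apart from si-NEK2 replicates 1 and 2 (-4.12 and -4.41). Values that si-CTRL replicate 1 moved by over 1.5 times, or whose direction it decided, are given without it as well. The summed level of VIM, CD44, EGFR and KRT18, which MDA-MB-231 cells express, was between 224246 and 268995 normalized counts in si-CTRL and between 192182 and 201790 in si-NEK2 libraries, without overlap, and CD44 and EGFR fell by 0.76 and 0.52 on the log2 scale. The sum of ESR1, PGR and CDH1, which they lack, was between 5.81 and 16.2 over all libraries. The summed levels of 4 leukocyte markers were between 8.75 and 19.4 in si-CTRL and between 16.0 and 34.4 in si-NEK2 libraries. The sum of 3 endothelial markers was between 49.4 and 76.2 in si-CTRL and between 28.9 and 39.5 in si-NEK2 libraries, and that of the fibroblast markers PDGFRB, LUM and COL1A2 between 686 and 826 and between 803 and 850. The part of these markers in the results below was not tested.

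Silencing of NEK2 was accompanied by a strong decrease of TGFBR1, a decrease of TGFB3 and increases of TGFBR3 and, less firmly, TGFB2, whereas the transcripts of TGFB1, TGFBR2, SMAD2, SMAD3, SMAD7 and SKIL did not pass the test. Genes are called regulated where the unadjusted p did not exceed 0.05 and the change was 1.5-fold or more, and are said to have risen or fallen where the p adjusted after Benjamini and Hochberg over all tested genes did not exceed 0.05. By the first rule 3 of the 10 members were regulated, which is a share of 30.0% beside 22.5% of all tested genes. TGFBR3 was regulated upward, beside 8.23% of all genes, and TGFBR1 and TGFB3 downward, beside 14.3% of all genes. By the second rule 4 members passed, beside 43.1% of all genes: 2 rose, beside 21.8%, and 2 fell, beside 21.3%. The values of the groups did not overlap for 6 of the 10 members, beside 55.0% of all genes. The median log2 fold change of the members was 0.05, and that of all tested genes 0.01. The shares of members that changed are therefore near those of the whole transcriptome, and the description below concerns single genes.

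**Figure D1:**
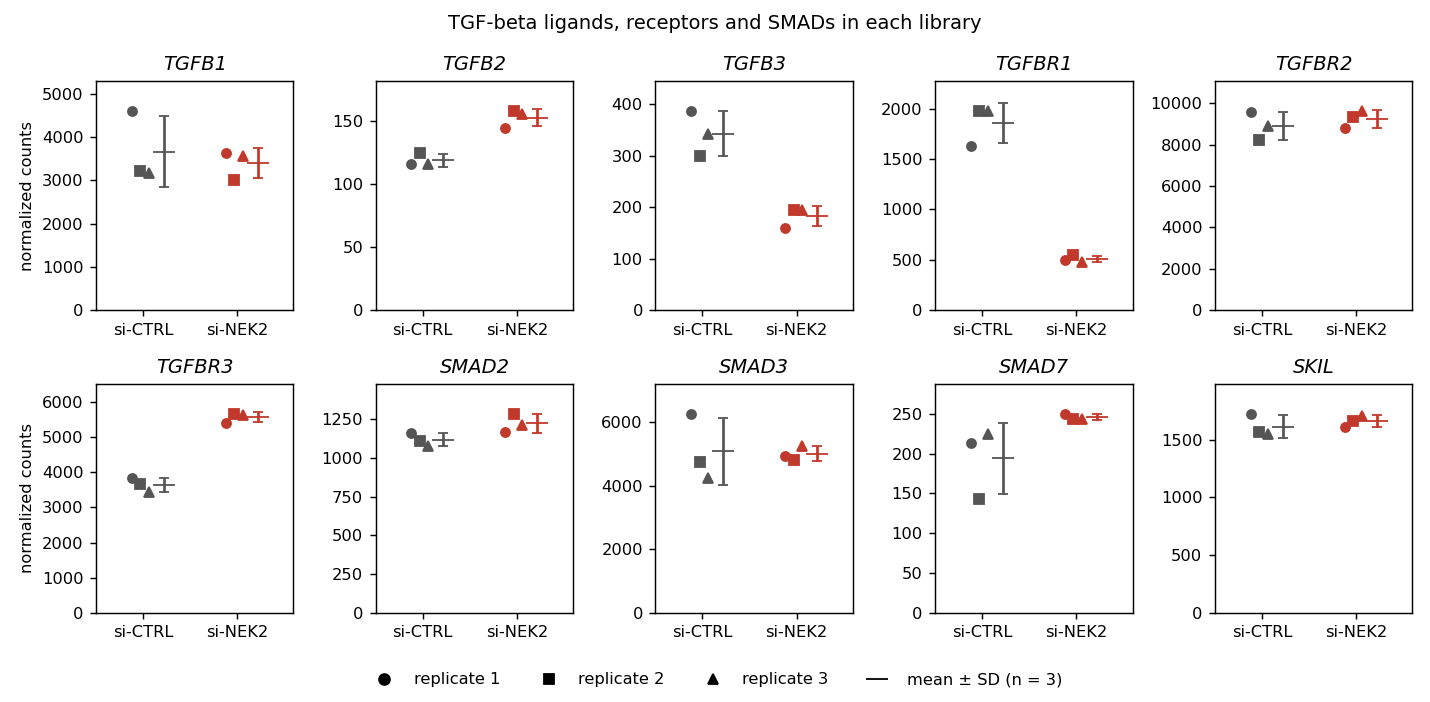
Normalized counts of the 10 members, 1 panel per gene on a linear axis from 0, with 1 point per library (the marker gives the replicate number) and the mean ± SD of the 3 libraries of each group beside the points. TGFBR1 and TGFB3 lie lower in each si-NEK2 library than in any si-CTRL library and TGFBR3 lies higher, while the points of TGFB1, TGFBR2, SMAD3 and SKIL overlap between the groups.

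Among the ligands, TGFB3 fell. This isoform (chr14:76424441-76448365, hg19) had 387, 299 and 343 normalized counts in si-CTRL replicates 1 to 3 and 160, 194 and 195 in si-NEK2 replicates 1 to 3. Each si-NEK2 library was below each si-CTRL library. The si-NEK2 mean was 53.3% of the si-CTRL mean, with a log2 fold change of -0.90 (SE 0.14, 95% confidence interval -1.22 to -0.58, adjusted p = 0.00105). Its change kept its direction and its call under each of the 17 alternative fits, with log2 fold changes from -1.03 to -0.73.

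TGFB2 (chr1:218518676-218617959), an isoform that binds TGFBR2 poorly without the coreceptor TGFBR3, had 116, 125 and 116 normalized counts in the si-CTRL libraries and 145, 158 and 156 in the si-NEK2 libraries. The groups did not overlap, though the gap was small beside those of TGFB3 or TGFBR1. The log2 fold change was 0.36 (SE 0.13, 95% confidence interval 0.07 to 0.65), and its adjusted p of 0.0479 in limma lay just inside the threshold. Under 12 of the 17 alternatives the call was lost, among them each fit without 1 library, and the adjusted p ranged from 0.00889 to 0.179. The increase of TGFB2 is thus not a firm call at this number of libraries. TGFB1 (chr19:41836228-41859838), the best known of the 3 isoforms, had 4604, 3211 and 3169 normalized counts in the si-CTRL libraries and 3630, 3002 and 3552 in the si-NEK2 libraries. The high value came from si-CTRL replicate 1, and the other si-CTRL libraries lay inside the range of the si-NEK2 libraries. Its log2 fold change was -0.09 (SE 0.15, adjusted p = 0.645), with a 95% confidence interval from -0.42 to 0.24, and it was 0.08 without si-CTRL replicate 1.

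The ligands were also compared with each other within each library, as normalized counts per kb of transcript, since longer transcripts give more reads. On this scale TGFB1 made up between 87.8% and 90.4% of the sum of the 3 ligands in si-CTRL libraries and between 90.9% and 93.4% in si-NEK2 libraries. The share of TGFB3 was between 8.35% and 10.4% in si-CTRL and between 4.51% and 6.46% in si-NEK2 libraries, without overlap. The ratio of TGFB2 to TGFB1 in normalized counts was 0.0336 ± 0.0073 (SD, n = 3) in si-CTRL and 0.0455 ± 0.0065 in si-NEK2 libraries, a log2 difference of 0.45 that was 0.26 without si-CTRL replicate 1. An exact two-sided permutation test gave p = 0.1, which is the smallest value that 3 libraries against 3 allow, and 0.15 after adjustment over 3 ratios.

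Among the receptors, TGFBR1 had the largest change of the 10 members. This type I receptor kinase (chr9:101867371-101916474) had 1631, 1977 and 1979 normalized counts in the si-CTRL libraries and 496, 544 and 480 in the si-NEK2 libraries. The lowest si-CTRL library was far above the highest si-NEK2 library. The si-NEK2 mean was 27.2% of the si-CTRL mean, which is 3.66-fold lower on the fitted scale, with a log2 fold change of -1.87 (SE 0.10, 95% confidence interval -2.10 to -1.64, adjusted p = 6.7e-06). Of the 18717 tested genes, 230 (1.23%) had a lower log2 fold change. Over the 17 alternative fits the log2 fold change of TGFBR1 ranged from -2.0 to -1.82, and each of them kept the call.

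TGFBR2 (chr3:30647993-30735634), the type II partner that binds the ligand, had 9591, 8230 and 8904 normalized counts in the si-CTRL libraries and 8778, 9308 and 9625 in the si-NEK2 libraries. The groups overlapped over most of their range. The log2 fold change was 0.05 (SE 0.07, adjusted p = 0.595), and its 95% confidence interval, from -0.12 to 0.22, bounds a change of this transcript to between 0.923-fold and 1.17-fold on the scale used. Without si-CTRL replicate 1 the log2 fold change of TGFBR2 was 0.11. The ratio of TGFBR2 to TGFBR1 in normalized counts was 4.85 ± 0.91 (SD, n = 3) in si-CTRL and 18.3 ± 1.55 in si-NEK2 libraries. It was between 4.16 and 5.88 in the first group and between 17.1 and 20.05 in the second, without overlap. The log2 difference of 1.93 had an exact two-sided permutation p of 0.1, again the smallest possible with 3 against 3, and of 0.15 after adjustment over 3 ratios.

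TGFBR3 (chr1:92145900-92371559) encodes betaglycan, a coreceptor without kinase activity that presents ligand to TGFBR2. It had 3824, 3661 and 3445 normalized counts in the si-CTRL libraries and 5416, 5673 and 5618 in the si-NEK2 libraries. Each si-NEK2 library lay above each si-CTRL library, and the spread within each group was small. TGFBR3 rose by a log2 fold change of 0.61 (SE 0.07, 95% confidence interval 0.46 to 0.76, adjusted p = 0.000174). The fitted change of 1.53-fold is just above the 1.5-fold limit, and it lay under that limit with upper quartile (log2 0.55), equal total (0.48) and quantile scaling (0.53) and without si-CTRL replicate 3 (0.57). It passed the adjusted p under each of these.

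**Figure D2:**
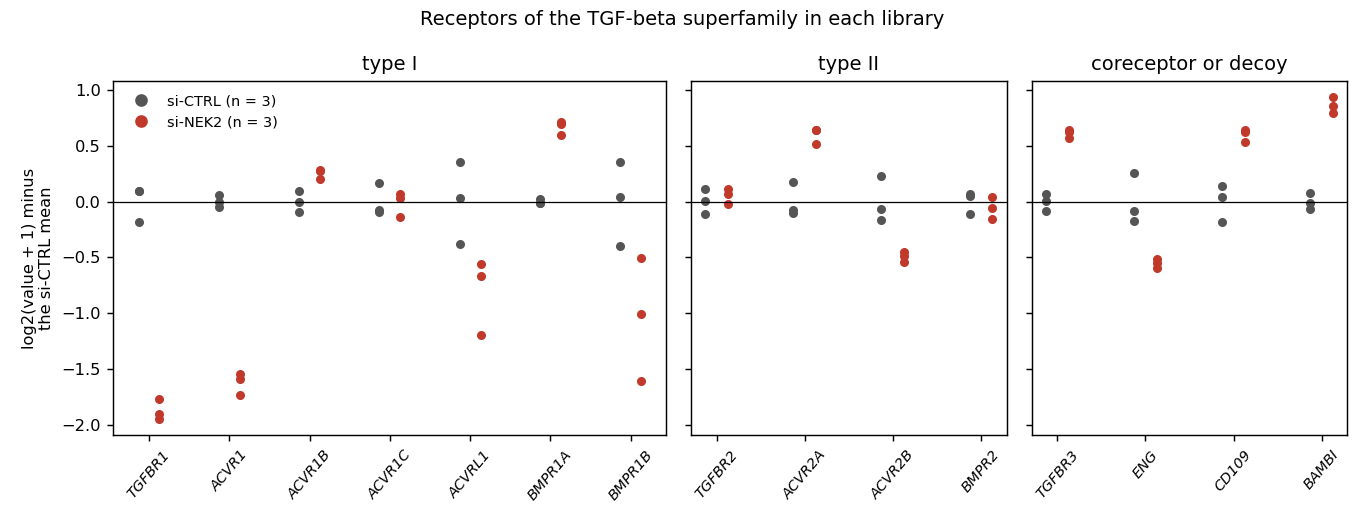
Level of each receptor of the superfamily in each library, as log2(value + 1) minus the si-CTRL mean of that gene, with 3 points per group and panels for type I receptors, type II receptors, and coreceptors or decoys. The si-NEK2 points of TGFBR1 and ACVR1 are close together and far below 0 (means of -1.87 and -1.62), those of BMPR1B are low but spread widely, and those of BAMBI (0.86), BMPR1A (0.67) and TGFBR3 (0.61) are above each si-CTRL point.

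The start regions of the receptor genes that were regulated are shown because these transcripts moved in opposite directions. They are the 300 bases from 250 before to 50 after the first annotated start in RefSeq (GRCh38.p14), printed 5′ to 3′ on the strand of the gene. Capitals mark matches, on either strand, to CAGAC, the core of the SMAD-binding element, and to GGGCGG, the GC box bound by SP1-type factors.
TGFBR1, chr9:99104863-99105162, plus strand: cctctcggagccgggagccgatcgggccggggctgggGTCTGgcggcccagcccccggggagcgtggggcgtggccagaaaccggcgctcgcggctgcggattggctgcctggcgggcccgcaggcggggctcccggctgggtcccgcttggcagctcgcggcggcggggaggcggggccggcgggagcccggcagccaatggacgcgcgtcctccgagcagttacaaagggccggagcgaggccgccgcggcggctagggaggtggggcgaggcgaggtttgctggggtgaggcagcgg
TGFBR3, chr1:91886102-91886401, minus strand: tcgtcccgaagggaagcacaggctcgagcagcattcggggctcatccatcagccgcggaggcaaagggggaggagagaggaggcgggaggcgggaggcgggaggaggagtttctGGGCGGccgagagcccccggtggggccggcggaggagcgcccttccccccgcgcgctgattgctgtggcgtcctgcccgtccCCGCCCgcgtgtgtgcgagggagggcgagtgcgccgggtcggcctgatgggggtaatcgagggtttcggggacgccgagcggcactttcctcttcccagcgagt
Both windows are rich in G and C, at 78.7% for TGFBR1 and 71.7% for TGFBR3, beside a median of 58.7% over 35116 promoters of the same length. The TGFBR1 window holds 1 match to CAGAC, 213 bases before the start, and none to GGGCGG. It belongs to the first of 8 starts listed for TGFBR1, and the windows of the others are not described. The TGFBR3 window holds 2 matches to GGGCGG, the first of them 136 bases before the start, and none to CAGAC. Matches of this kind are common, as 45.3% of the promoters hold CAGAC and 45.0% hold GGGCGG. The windows of TGFB3, which fell, and TGFB2, which rose less firmly, each hold 2 matches to CAGAC and none to GGGCGG. Whether such matches bear on the changes was not tested.

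None of the SMAD members passed the test. SMAD2 (chr18:45359466-45457517), which carries the signal of TGF-beta and activin receptors, had 1162, 1109 and 1078 normalized counts in the si-CTRL libraries and 1169, 1286 and 1213 in the si-NEK2 libraries. The groups did not overlap, but the highest si-CTRL and the lowest si-NEK2 library nearly met. The log2 fold change was 0.13 (SE 0.08, adjusted p = 0.209). SMAD3 (chr15:67358183-67487533), the DNA-binding partner in the same branch, had 6280, 4738 and 4262 normalized counts in the si-CTRL libraries and 4951, 4809 and 5273 in the si-NEK2 libraries. The si-CTRL libraries lay on both sides of the si-NEK2 libraries, with si-CTRL replicate 1 highest. The log2 fold change was -0.0049 (SE 0.13, 95% confidence interval -0.30 to 0.29, adjusted p = 0.98), and without si-CTRL replicate 1 it was 0.16. The ratio of SMAD3 to SMAD2 in normalized counts was 4.54 ± 0.76 (SD, n = 3) in si-CTRL and 4.11 ± 0.32 in si-NEK2 libraries, with an exact two-sided permutation p of 0.5 and the same value after adjustment. The log2 difference was -0.14, and -0.0038 without si-CTRL replicate 1, in which the ratio was 5.403 beside 4.27 and 3.95 in the other si-CTRL libraries.

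SMAD7 (chr18:46446223-46477091), the inhibitory SMAD that competes at the type I receptor, had 214, 143 and 225 normalized counts in the si-CTRL libraries and 250, 244 and 243 in the si-NEK2 libraries. The si-NEK2 libraries were close together and above each si-CTRL library, of which replicate 2 was low. The log2 fold change was 0.37 (SE 0.17, 95% confidence interval -0.03 to 0.76, adjusted p = 0.121). Of the 17 alternatives it passed the test under quantile normalization (0.53, adjusted p = 0.0406), and it was 0.16 without si-CTRL replicate 2. SKIL (chr3:170075383-170114637), also known as SnoN, which represses SMAD targets, had 1725, 1568 and 1545 normalized counts in the si-CTRL libraries and 1608, 1660 and 1707 in the si-NEK2 libraries. The groups overlapped. The log2 fold change was 0.04 (SE 0.08, 95% confidence interval -0.13 to 0.21, adjusted p = 0.689), and 0.09 without si-CTRL replicate 1.

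**Figure D3:**
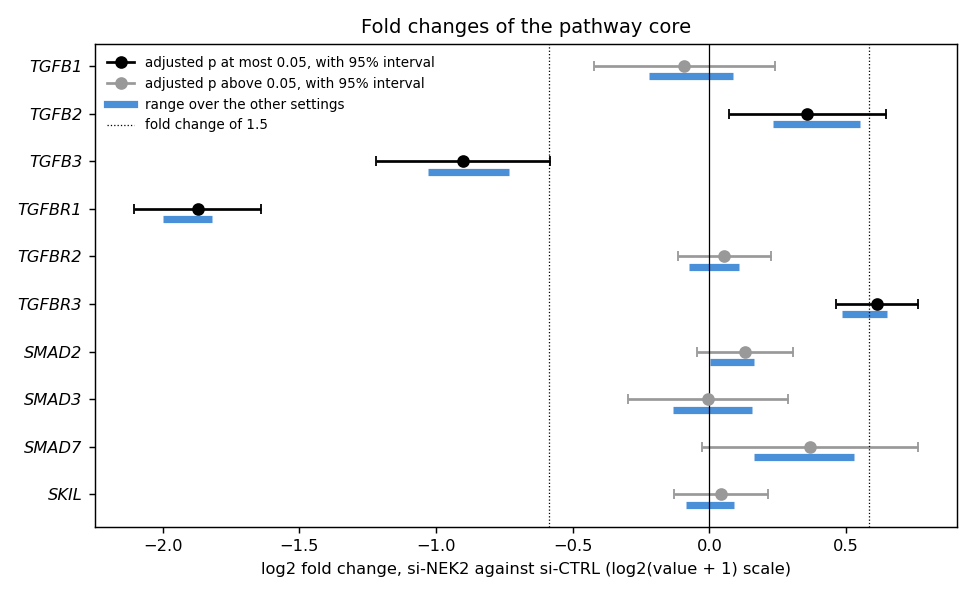
Log2 fold change of si-NEK2 against si-CTRL for each member, in order of role, with the 95% confidence interval from limma as a line (black where the adjusted p is at most 0.05, grey otherwise) and the range over the 17 alternative fits as a blue bar. Dotted lines mark a change of 1.5-fold. The intervals of TGFBR1, TGFB3, TGFBR3 and TGFB2 leave out 0, and that of SMAD7 reaches to -0.03.

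To order the members by level, normalized counts were divided by the length in kb of the longest coding transcript whose genomic span exceeds that of the gene row by at most 5%. TGFBR2 had the highest level per kb in both groups, at 1928 ± 147 (SD, n = 3) in si-CTRL and 1999 ± 92.5 in si-NEK2 libraries. TGFB1 followed at 1322 ± 295 and 1226 ± 124, and TGFB2 was lowest at 23.6 ± 1.01 and 30.3 ± 1.40. TGFBR1 stood at rank 5 of 10 in si-CTRL libraries, at 286 ± 30.7 per kb, and at rank 7 in si-NEK2 libraries, at 77.8 ± 5.11. In the latter it did not differ from TGFB3 beyond the spread, which was at 72.6 ± 8.06 per kb and at rank 8, while in the si-CTRL libraries TGFB3 was at 136 ± 17.5. TGFBR3 was at 564 ± 29.4 per kb in si-CTRL libraries, below SMAD3 at 815 ± 169, and at 861 ± 20.9 in si-NEK2 libraries, where SMAD3 was at 802 ± 38.0 and lay below TGFBR3 in each library, though the ranges of this pair overlapped. SKIL was at 225 ± 13.6 and 231 ± 6.90 per kb, SMAD2 at 92.5 ± 3.53 and 101 ± 4.91, and SMAD7 at 43.8 ± 10.0 and 55.5 ± 0.888. The place of SMAD2 depends on the transcript chosen. Its longest annotated coding transcript has 34526 bases and would give 32.3 per kb in si-CTRL and 35.4 in si-NEK2 libraries. That would put SMAD2 below TGFBR1 in si-NEK2 libraries, so that the rank of TGFBR1 there depends on this choice as well.

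**Figure D4:**
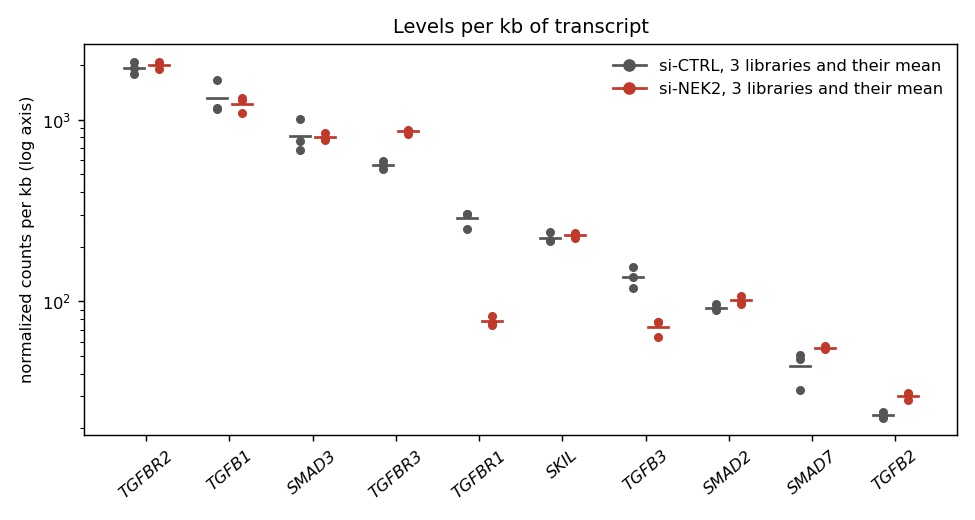
Normalized counts per kb of transcript for the 10 members, on a log axis, with 1 point per library and a bar at the mean of each group of 3, ordered by the si-CTRL mean. In si-CTRL libraries TGFBR1 lies between TGFBR3 and SKIL, and in si-NEK2 libraries it lies beside TGFB3.

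The other genes of the pathway were taken from 6 lists, with 89 genes in all, of which 82 were tested. Of these, 36 (43.9%) were regulated, beside 22.5% of all tested genes, with 13 upward and 23 downward, beside 8.23% and 14.3%. The adjusted p was passed by 50 (61.0%), beside 43.1% of all tested genes, with 21 that rose and 29 that fell, beside 21.8% and 21.3%, and these last shares are the background of each list below. Their median log2 fold change was -0.11. Up to 3 genes are named from each list, those with the largest changes by a fixed rule. The lists share LTBP2, THBS1, PMEPA1 and TGIF1, and they were chosen with results of these libraries known, so that their counts are a description.

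The list of ligand storage and activation holds latent TGF-beta binding proteins, integrins and proteases, and 10 of its 13 genes were tested. Of these 3 rose and 3 fell, and the median of their log2 fold changes was 0.01. LTBP2 and LTBP4, matrix proteins of the latent TGF-beta binding family, fell by 0.71 (SE 0.06) and 0.66 (SE 0.09) on the log2 scale. ITGB8, a subunit of an integrin that activates latent TGF-beta, rose by a log2 fold change of 0.76 (SE 0.22, adjusted p = 0.023), a call that was lost under some alternatives, among them the fits without any 1 of the si-NEK2 libraries, where its adjusted p reached 0.0718. It had 104, 178 and 201 normalized counts in the si-CTRL libraries and 271, 257 and 264 in the si-NEK2 libraries. The lowest value was that of si-CTRL replicate 1, and without it the log2 fold change of ITGB8 was 0.48, which is under 1.5-fold, with an adjusted p of 0.00846.

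Of the other ligands of the superfamily and their antagonists, 14 of 17 were tested, 1 rose and 9 fell, and the median of their log2 fold changes was -0.68. BMP4, a bone morphogenetic protein, rose from 106 ± 9.91 to 205 ± 8.0 normalized counts (SD, n = 3), a log2 fold change of 0.95 (SE 0.13, adjusted p = 0.000581). GDF15, a stress-induced member of the superfamily, fell from 405 ± 22.9 to 167 ± 39.9, a log2 fold change of -1.30 (SE 0.18). CHRD, or chordin, which binds bone morphogenetic proteins outside the cell, fell from 331 ± 14.8 to 174 ± 16.6, a log2 fold change of -0.93 (SE 0.12). Of the 6 antagonists in the list, which were grouped after their values were seen, 5 fell and none rose, where 21.3% of all tested genes fell and 21.8% rose.

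The 12 other receptors of the superfamily included 5 that rose and 4 that fell, and the median over the list was -0.04. ACVR1, a type I receptor for bone morphogenetic proteins and activins, fell from 2117 ± 80.9 to 689 ± 46.2 normalized counts, a log2 fold change of -1.62 (SE 0.08, adjusted p = 5.03e-06), second to TGFBR1 among the type I receptors. BMPR1A, another type I receptor, rose from 2369 ± 27.8 to 3767 ± 153, a log2 fold change of 0.67 (SE 0.06). BAMBI, a decoy receptor without kinase domain, rose from 514 ± 26.7 to 934 ± 47.3, a log2 fold change of 0.86 (SE 0.09). With TGFBR1 included, 3 of the 7 type I receptors fell and 2 rose, beside 21.3% and 21.8% of all tested genes. TGFBR1, ACVR1 and BMPR1A passed in each fit without 1 library. In these fits the adjusted p in limma was between 0.0211 and 0.102 for ACVR1B and between 0.0171 and 0.108 for BMPR1B. For ACVRL1 it was between 0.0425 and 0.172, so that the type I counts are not firm. Only 1 of BMPR1B and ACVRL1 was among the 3 that fell with all libraries. The same shares of all genes stand beside the counts that follow. With TGFBR2 included, 1 of the 4 type II receptors fell and 1 rose. Of the 4 coreceptors and decoys, TGFBR3 among them, 3 rose and 1 fell.

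Among the 5 other SMADs, 2 rose and none fell, and the median over the list was 0.29. SMAD6, the inhibitory SMAD of the bone morphogenetic protein branch, rose from 329 ± 56.9 to 520 ± 15.5 normalized counts, a log2 fold change of 0.67 (SE 0.13, adjusted p = 0.00322). The other was SMAD4, named after its value was seen, the common partner of SMAD2 and SMAD3, with a log2 fold change of 0.46 (SE 0.08), on a row that it shares with ELAC1. Of the 19 SMAD partners and negative regulators, 6 rose and 2 fell, with a median of 0.15. USP9X, a deubiquitinase that acts on SMAD4, rose from 3824 ± 445 to 6116 ± 136 normalized counts, and STRAP, which binds TGF-beta receptors and SMAD7, from 12495 ± 130 to 19171 ± 245, with log2 fold changes of 0.68 (SE 0.09) and 0.62 (SE 0.06).

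Of the genes known to respond to TGF-beta, 26 of 27 were tested, 6 rose and 12 fell, beside 21.8% and 21.3% of all tested genes, and the median over the list was -0.31. The list was not split by whether TGF-beta raises or lowers a gene, so that its counts and median give no direction of the response. IL11, a cytokine induced by TGF-beta in breast cancer cells, had 1065, 1263 and 1597 normalized counts in the si-CTRL libraries and 367, 308 and 294 in the si-NEK2 libraries. The groups were far apart, and the log2 fold change was -2.0 (SE 0.15, adjusted p = 3.36e-05). CDKN2B, the cell cycle inhibitor p15, which TGF-beta induces in epithelial cells, went the other way: it had 1216, 1352 and 1515 normalized counts in the si-CTRL libraries and 5278, 5184 and 4710 in the si-NEK2 libraries. Its log2 fold change was 1.90 (SE 0.09, adjusted p = 4.58e-06).

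**Figure D5:**
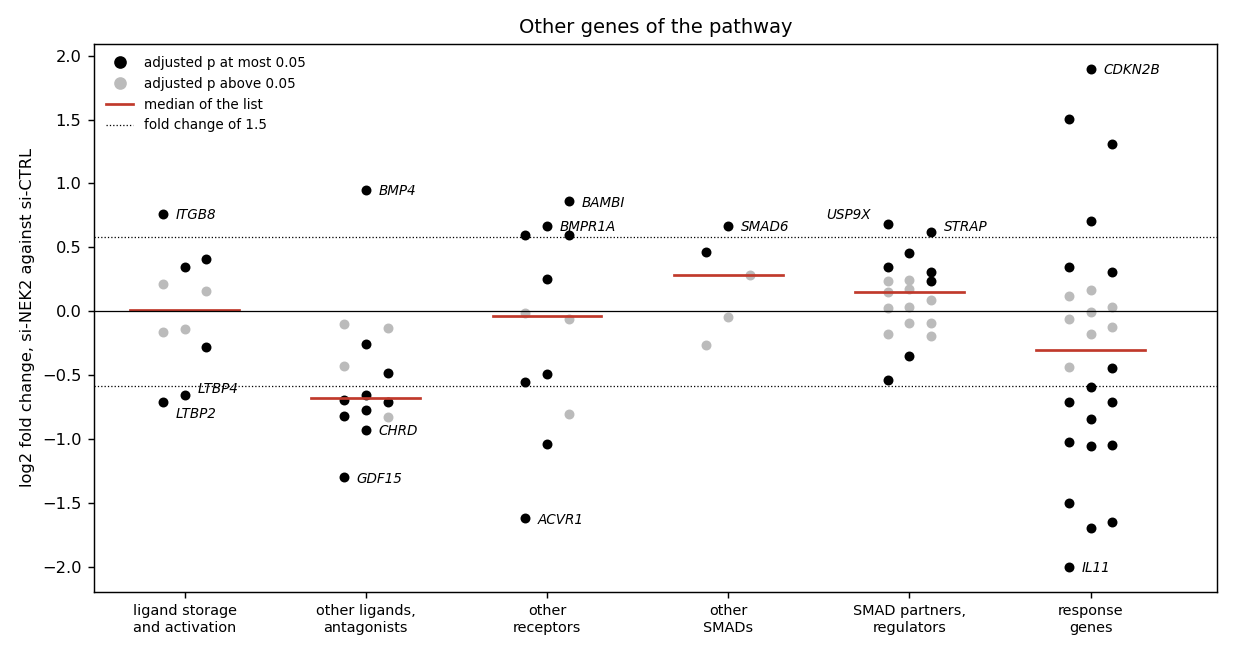
Log2 fold change of si-NEK2 against si-CTRL for each tested gene of the 6 pathway lists, with 1 point per gene, black where the adjusted p from limma is at most 0.05 and grey otherwise, the median of each list as a red bar, and dotted lines at a change of 1.5-fold. IL11 (-2.0) is the lowest point and CDKN2B (1.90) the highest.

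The genes whose values over the 6 libraries were most like those of the member with the largest decrease and of that with the largest increase were sought among 12101 genes with 1 symbol and a mean of at least 50 normalized counts. On log2(value + 1), PITPNB, MSRB3 and LRRC8B were most like TGFBR1, with Pearson r of 0.9998, 0.9995 and 0.9994. Their log2 fold changes were -0.97 (SE 0.07), -1.47 (SE 0.08) and -0.81 (SE 0.11). STAC, FBXO27 and ZCCHC2 were most like TGFBR3, with r of 0.9993, 0.9993 and 0.9991 and log2 fold changes of 0.84 (SE 0.08), 0.82 (SE 0.11) and 1.12 (SE 0.11). The 6 libraries are 2 groups that stand apart for these genes, and r reached 0.99 for 173 genes beside TGFBR1 and for 224 beside TGFBR3, so that the names are a description of likeness over these libraries.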

How the data were processed

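The authors deposited a signal for each gene in each library: its reads, scaled by a DESeq2 size factor. Genes carry FAST DB annotation and hg19 coordinates. Replicates were not pooled. The submitters' processing notes name FastQC, STAR 2.4.0, SAMtools, Picard, DESeq2 and hg19. The read counter and its strand setting are not given in the sources used here, and reads of overlapping or antisense genes may be mixed. The sample records place the harvest of each library 24 h after the second transfection. The methods give another time after transfection, and they also differ from the records in RNA kit and medium. No source used here says if the groups were prepared together. The records of the si-CTRL libraries each cite a further sample record, which those of the si-NEK2 libraries do not, and any difference in preparation between the groups cannot be told apart from the silencing. Each value was a whole multiple of 1 read (tolerance 0.05) for 100% of values, which gave back the reads. A value of 0 allows up to 3 reads, for counting error only.

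Groups came from the sample records. The 18717 genes that averaged 10 or more over the 6 libraries were tested on log2(value + 1) with limma (version 3.58.1, R 4.3.3), using eBayes with an intensity trend. Because 1 was added to each value, the fold change of low genes is understated. The design had no covariates. P-values measure only the spread between these libraries. Libraries of 1 replicate number showed no clear shared deviation, as the correlations of their deviations were -0.09, 0.05 and -0.15. These correlations cannot show whether the libraries were prepared in pairs. No replicates were alike within sampling noise. Ratios of members were tested by exact permutation. On simulated data with 200 changed genes the fit was tested before use. Those data had a far smaller share of changed genes and no library that stood apart as si-CTRL replicate 1 did. Members and lists were chosen with earlier results of these data known. The text names all members, NEK2, up to 3 genes per list with a mean of at least 50, an adjusted p of at most 0.05 and the largest fold changes of at least 1.5, and the 3 genes most like the members with the largest increase and decrease. Of the genes this rule names, 1 is not reported here. Promoters came from RefSeq (GRCh38.p14) and transcript lengths from GENCODE v29. The first listed start was used, and a promoter was printed where its transcribed bases were found in a GENCODE transcript. The alternatives were a pseudocount of 0.1 or 5, a filter at a mean of 50 or none, scaling by upper quartile, by equal totals or by quantiles, no eBayes trend, a block for the replicate number, leaving out each library, and edgeR 4.0.16 and DESeq2 1.42.0 on the recovered reads.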

Additional observations from a re-analysis of the deposited data

How the results depend on the processing

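Over 17 alternative fits, of which 6 left out 1 library, NEK2, TGFBR1, TGFB3 and TGFBR3 kept their direction and an adjusted p within the threshold, while TGFBR3 was under 1.5-fold, and so not regulated, under each of the 3 other scalings and without si-CTRL replicate 3. TGFB2 lost its call with no filter (0.36), upper quartile (0.29) and equal total scaling (0.23), edgeR (0.35) and DESeq2 (0.35), and in each fit without 1 library (0.33 to 0.40). With the replicate number as a block its value was 0.36 with an adjusted p of 0.0971, and the block changed no other call of a member. It left 3 members regulated. SMAD7 passed the test with quantile normalization (0.53). Values near 0 changed sign. TGFBR2 was at -0.012 under upper quartile scaling, -0.074 under equal total scaling and -0.069 under quantile scaling, and between -0.0017 and 0.11 without 1 library. SKIL was at -0.024 and -0.086 under the first 2 of these. Without 1 library, TGFB1 was between -0.18 and 0.085, and SMAD3 between -0.12 and 0.16. Between 2 and 3 members and between 30 and 36 pathway genes were regulated over the 17 fits, and with a fold change of at least 2 the counts were 1 and 13. The median log2 fold change of all genes was -0.11 with equal total scaling, and the share of regulated genes that were higher was 36.6% in the deposited values, 28.1% under upper quartile scaling, 21.3% under equal total scaling and 45.9% under quantile scaling. With 3 libraries per group, a ratio of members cannot reach p = 0.05 in the permutation test, and with the replicate number as a block it cannot go below 0.25. At this depth TGFB2, with 93 to 177 reads per library, had the fewest reads of the members. The cause of these shifts was not tested.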

Other observations

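The following genes of the response list were named after their values were seen. The transcripts of ID1, ID2 and ID3, inhibitors of DNA binding that bone morphogenetic proteins are known to induce, rose by log2 fold changes of 0.70 (SE 0.20), 1.31 (SE 0.11) and 1.5 (SE 0.15). The groups did not overlap for ID2 and ID3 and overlapped for ID1, whose adjusted p in limma reached 0.0711 over the alternatives and whose call was lost without si-CTRL replicate 2, si-NEK2 replicate 1 or si-NEK2 replicate 2. MYC fell by 0.84 (SE 0.15) on the log2 scale. CDKN1A, the cell cycle inhibitor p21, fell from 5831 ± 265 to 1859 ± 18.8 normalized counts (SD, n = 3), a log2 fold change of -1.65 (SE 0.07). ANGPTL4, CTGF and TAGLN fell by 1.5 (SE 0.17), 1.02 (SE 0.14) and 1.06 (SE 0.15) on the log2 scale. Over the 26 tested genes of this list, 6 rose, 12 fell and 8 did not pass the test. In the fits without 1 library, TGFBI was between -0.070 and 0.10 and FN1 between -0.16 and 0.010. COL1A1 was between -0.24 and -0.083 in these fits and did not pass in any. PMEPA1 was between 0.26 and 0.35, with an adjusted p in limma of at most 0.0382.

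INHBA, which encodes the subunit of activin A, fell from 1832 ± 177 to 1038 ± 61.9 normalized counts, a log2 fold change of -0.82 (SE 0.09). Among the antagonists of bone morphogenetic proteins and activins, NOG, FSTL1, FST and GREM1 fell by 0.77 (SE 0.21), 0.66 (SE 0.06), 0.48 (SE 0.11) and 0.26 (SE 0.07) on the log2 scale, of which FSTL1 shares its row with another gene. The calls of NOG and GREM1 were lost under some alternatives, where the adjusted p reached 0.0542 and 0.0732, for NOG without si-NEK2 replicate 3 and for GREM1 without si-CTRL replicate 3, si-NEK2 replicate 1 or si-NEK2 replicate 2. FSTL3, at -0.82 (SE 0.31, adjusted p = 0.0592), did not pass the test, and its value was -0.41 without si-NEK2 replicate 3. It passed in the fit without si-NEK2 replicate 1 (-1.06, adjusted p = 0.0382). CD109, a coreceptor that binds TGFB1, rose by a log2 fold change of 0.60 (SE 0.09), and ENG, or endoglin, fell by 0.55 (SE 0.11) on the log2 scale.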
